A study of Danio rerio with 2 samples.

Results

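Collagens, laminins, integrins and fibronectins were described in zebrafish (Danio rerio) embryos as rows of Agilent 2-colour expression arrays whose gene name begins with col, lam, itg or fn1 followed by the numbering of a chain. The rule was applied to names only and used no measured value. It found 31 names on 47 spots, of 36305 names on 43839 spots that are not controls: 12 collagens (20 spots), 6 laminins (10 spots), 10 integrins (11 spots), 2 fibronectins (5 spots) and itgb1bp1 (1 spot), which is no integrin but a cytoplasmic protein that binds the tail of integrin beta1. Ovulated oocytes had received 10.3 ng per embryo of either MO2-ers2a, a morpholino (an antisense oligonucleotide) that blocks translation of the estrogen receptor beta2 transcript, or a control morpholino, MO-control. All groups were thus injected. The strain, how many embryos made up an RNA extract and the sequence of the control morpholino are not stated in the labels. Total RNA of whole embryos fixed at 8 hours post fertilization (hpf), during gastrulation, or at 48 hpf, near hatching, was compared on 1 array per time, with MO2-ers2a embryos in Cy5 and MO-control embryos in Cy3.

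Cells attach to a scaffold that they secrete themselves. Sheets of basement membrane are built from laminin trimers, each of an alpha, a beta and a gamma chain, and from a network of type IV collagen; looser tissue, skin and cartilage hold collagen fibrils. Fibronectin is assembled into fibrils by cells that hold it through integrins, receptors made of an alpha and a beta chain that span the membrane and connect to actin through adaptor proteins. In zebrafish, fibronectin is known for its part in the migration of heart precursors and in somite boundaries, and the laminin chains encoded by lama1, lamb1 and lamc1 for their part in the notochord.

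With 1 array per time, no dye swap and no replicate, no difference could be tested and no p-value is given. A ratio above 0 on the log2 scale means more signal in MO2-ers2a embryos, and a spot counted as measured where both channels exceeded the limit set by 153 negative control spots. This held for 44.4% of all spots at 8 hpf and 47.9% at 48 hpf. Spots that carry 1 name differed among themselves with a pooled log2 SD of 0.31 on the 8 hpf array and 0.23 on the 48 hpf array; over the 7 member names with several measured spots it was 0.20 and 0.11. This is technical spread within an array. None of the 2 spots of esr2a, taken here to be the targeted gene, was measured at either time, so the knockdown could not be checked on these arrays, and a translation block need not lower the transcript. Both arrays share their dye orientation, so a ratio that recurs at both times cannot be told apart from a dye effect specific to that spot. In whole embryos, fewer cells of a type and less RNA per cell cannot be told apart.

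At 8 hpf, 18 of the 31 names were measured, and fibronectin, its integrin receptor chains and most laminin chains had more signal in MO2-ers2a embryos, while most collagens had less, relative to the median of the array. The differences were small. Of the 18, 2 were at least 1.5-fold higher, fn1 and itga5, against 7.45% of all 15492 measured names, and 0 were 1.5-fold lower, against 8.03%. This split depends on the scaling: centred on spike-in spots, 0 members were 1.5-fold higher and 2 lower, against 3.34% and 23.9% of all names. A 2-fold difference was reached by 0 in either direction, where 2.32% of all measured names were 2-fold higher and 2.27% 2-fold lower. At 48 hpf, 27 names were measured. Of these, 2 were at least 1.5-fold higher (lamb4 and itga5; 5.66% of all 16775 measured names were) and 3 were 1.5-fold lower (itgb1b.2, itgb4 and col10a1; 6.91% of all were). Only itgb1b.2 reached 2-fold, on the lower side, where 1.28% of all names lay, and with the median of the array set to 0 in place of loess it did not (-0.96). Of the members, 0 were 2-fold higher, against 1.29%. The shares of members past these sizes were thus of the order of the shares among all names, at counts too small to separate them.

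Each family was counted on either side of 0, and differences between families were not tested. Laminins were above 0 for 4 of 5 measured names at 8 hpf and 5 of 6 at 48 hpf, with medians of 0.31 and 0.35. Integrins were above 0 for 3 of 4 and 5 of 7, with medians of 0.34 and 0.25, and fibronectins for 2 of 2 at both times, with medians of 0.69 and 0.33. Collagens were above 0 for 1 of 6 names at 8 hpf and 4 of 11 at 48 hpf, with medians of -0.17 and -0.03. Among all measured names, 47.8% lay above 0 and 52.2% below it at each time, and the medians were -0.02 and -0.02. The medians are relative to the other names of the array. Centring on spike-in spots moved the median of all names to -0.32 at 8 hpf and 0.04 at 48 hpf, and with it the laminin median at 8 hpf to 0.01, the integrin median to 0.04 and the collagen median at 48 hpf to 0.02. With spike-in centring and no loess, the laminin and integrin medians at 8 hpf were -0.23 and -0.12, where that of all names was -0.56. With the median of the array set to 0 in place of loess, the collagen median at 48 hpf was 0.09. With no filter on dim spots, the collagen median at 8 hpf was 0.0013 and the integrin median 0.03. The sides of 0 for laminins and integrins at 8 hpf and for collagens at both times thus depend on the scaling or the filter.

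**Figure D1:**
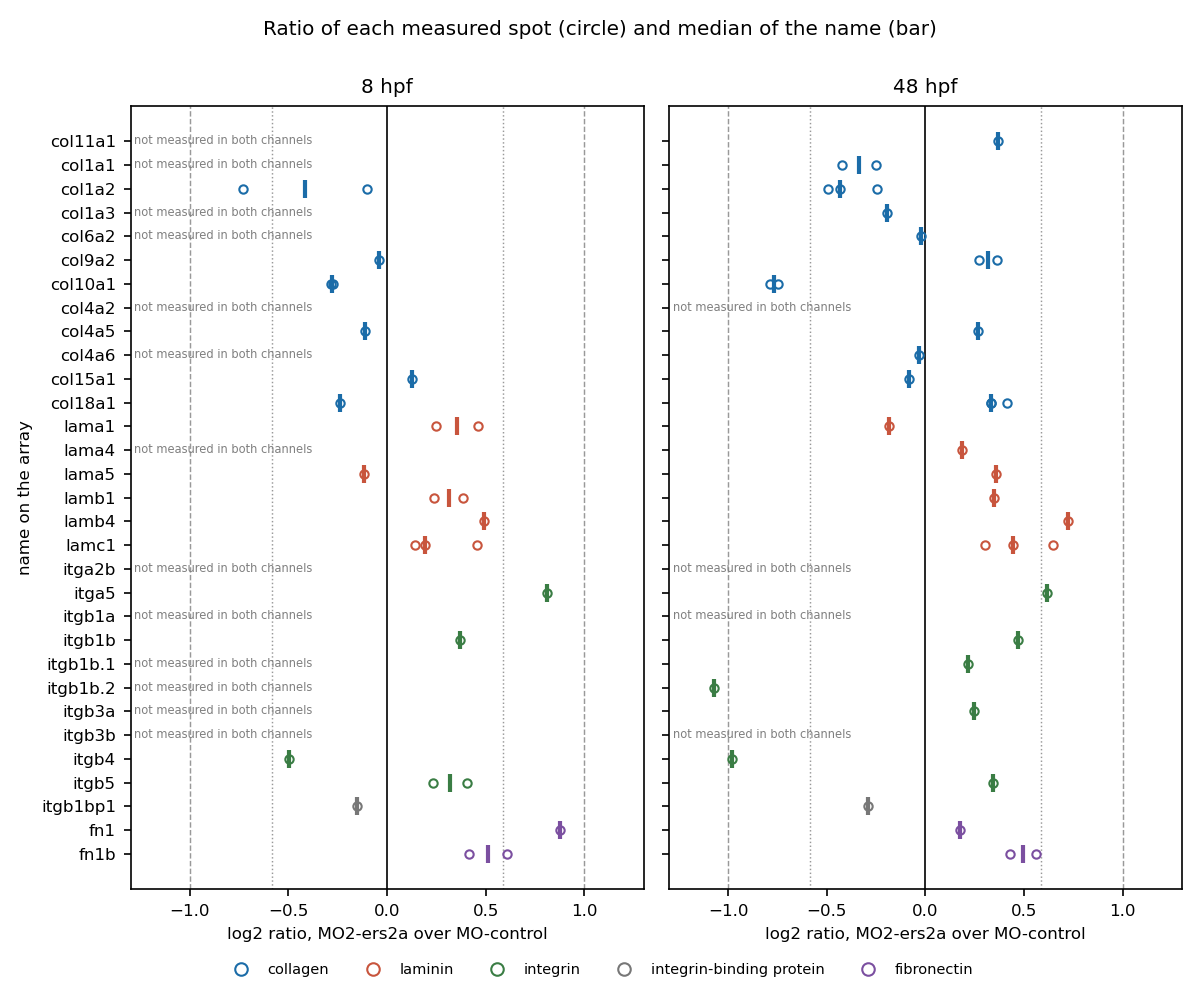
Log2 ratio of MO2-ers2a over MO-control signal (horizontal axis) for each of the 31 names (vertical axis) at 8 hpf (left) and 48 hpf (right). Circles are measured spots, bars the median of a name, dotted lines 1.5-fold and dashed lines 2-fold. At 8 hpf fn1 (0.88) and itga5 (0.81) lie farthest to the right, and at 48 hpf itgb1b.2 (-1.07), itgb4 (-0.98) and col10a1 (-0.77) farthest to the left.

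Of the measured members, fn1 had the highest ratio at 8 hpf; in the authors' deposited table lamb4, at 0.96, stood above it. The bright spot of fn1, the gene now named fn1a, had a normalized log2 signal of 12.35 in MO2-ers2a and 11.47 in MO-control embryos at 8 hpf, and of 9.92 and 9.74 at 48 hpf. At 8 hpf MO2-ers2a embryos thus had 1.84-fold more fn1 signal, a ratio above that of 96.5% of all measured names (0.57 with spike-in centring, under 1.5-fold), and at 48 hpf the ratio was 0.17. The other fn1 spot was above background only in Cy5 at 8 hpf and in neither channel at 48 hpf. At 8 hpf its bound was 1.23-fold higher, while its ratio with spike-in centring was 0.08. The paralog fn1b had 2 measured spots. Its brighter spot stood at 11.21 in MO2-ers2a and 10.80 in MO-control embryos at 8 hpf, and at 13.26 and 12.70 at 48 hpf. The ratios of its spots were 0.41 and 0.61 at 8 hpf and 0.56 and 0.43 at 48 hpf, all on the same side of 0, and the medians of 0.51 and 0.50 were nearly equal at both times. The remaining fn1b spot was not above background at either time.

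Integrin alpha5 pairs with beta1 to form the main fibronectin receptor. The 1 itga5 spot had log2 signals of 10.49 in MO2-ers2a and 9.67 in MO-control embryos at 8 hpf, and of 8.56 and 7.94 at 48 hpf. MO2-ers2a embryos were 1.75-fold higher at 8 hpf and 1.54-fold higher at 48 hpf, above 95.9% and 95.1% of all measured names. Itga5 was the 1 member at least 1.5-fold higher at both times, but it fell short of 1.5-fold at 8 hpf with spike-in centring (0.51) and at 48 hpf without background correction (0.55) or with spike-in centring and no loess (0.42). The beta1 gene itgb1b, also on 1 spot, stood at 11.05 against 10.68 at 8 hpf and 9.51 against 9.04 at 48 hpf, ratios of 0.37 and 0.47. Both chains of the receptor and both fibronectins therefore lay above 0 at both times, by between 0.17 and 0.88. Centring on spike-in spots left them above 0 as well, from 0.06 for itgb1b at 8 hpf to 0.67 for itga5 at 48 hpf. With spike-in centring and no loess, itgb1b at 8 hpf stood at -0.02, where the median of all names was -0.56.

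Both itgb1b.2 and itgb1b.1 are listed beside itgb1b in the RefSeq table of assembly GRCz12tu, with 0 protein-coding genes between neighbours. Itgb1b.2 was not above background in either channel at 8 hpf. At 48 hpf it had a log2 signal of 9.26 in MO2-ers2a and 10.33 in MO-control embryos, 2.10-fold less in MO2-ers2a embryos. The ratio of -1.07 was below that of all but 0.942% of measured names. It was -0.96 with the median of the array set to 0 in place of loess, and -1.14 with spike-in centring and no loess. The neighbour itgb1b.1 had 9.17 against 8.95 at 48 hpf, a ratio of 0.22, and at 8 hpf it was above background only in Cy5. The array files give no probe sequences, so whether a probe also binds a neighbouring copy was not tested. Itgb1a, the other beta1 gene, was not above background at either time. Itgb1bp1, the partner of the beta1 tail, had ratios of -0.15 at 8 hpf and -0.29 at 48 hpf.

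Integrin beta4 pairs with alpha6 in hemidesmosomes, the junctions by which basal skin cells hold laminin. The spot named itgb4 had log2 signals of 6.45 in MO2-ers2a and 6.94 in MO-control embryos at 8 hpf, close to background, and of 8.38 and 9.37 at 48 hpf. The ratio was -0.50 at 8 hpf and -0.98 at 48 hpf, 1.98-fold lower, with only 1.34% of all names as low or lower. A brighter spot that carries a clone name, and that RefSeq lists under itgb4, gave -0.17 and -0.11 at signals of 14.04 against 14.21 and 15.55 against 15.67. The spots named for this gene thus disagree at 48 hpf by more than the spread between spots of a name, and which one measures itgb4 was not tested.

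The remaining integrins were of vascular and platelet-type receptors and of the alphav partner beta5. Itgb5, a vitronectin receptor chain, had 10.54 in MO2-ers2a and 10.14 in MO-control embryos on its brighter spot at 8 hpf, and 8.00 against 7.66 at 48 hpf. The median ratio was 0.32 at 8 hpf over 2 spots (0.23 and 0.40) and 0.34 at 48 hpf over 1. Itgb3a, which with alphaIIb binds fibrinogen on thrombocytes, was measured only at 48 hpf, at 7.19 against 6.95. Itgb3b and itga2b, the alphaIIb chain, were not above background in either channel at either time.

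The chains of the early embryonic laminin were higher in MO2-ers2a embryos at 8 hpf relative to the median of the array, by less than 1.5-fold. The brighter spot of lama1, the alpha chain, had a log2 signal of 11.20 in MO2-ers2a and 10.74 in MO-control embryos at 8 hpf, and of 7.78 and 7.97 at 48 hpf. Its ratio was 0.36 at 8 hpf over 2 spots (0.25 and 0.46) and -0.19 at 48 hpf over 1, the 1 laminin below 0 at that time. Lamb1, the beta chain now named lamb1a, had 10.64 against 10.40 at 8 hpf and 8.43 against 8.08 at 48 hpf on its brighter spot, with median ratios of 0.31 and 0.35. Lamc1, the gamma chain, was measured on 3 spots at both times, all above 0. They ran from 0.14 to 0.46 at 8 hpf, with a median of 0.19, and from 0.30 to 0.65 at 48 hpf, with a median of 0.44. The brightest lamc1 spot stood at 10.93 against 10.79 at 8 hpf and at 10.60 against 10.16 at 48 hpf.

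Lamb4, another beta chain, had the highest ratio of the laminins at both times. Its 1 spot had log2 signals of 7.93 in MO2-ers2a and 7.44 in MO-control embryos at 8 hpf, a ratio of 0.49, and of 9.45 and 8.73 at 48 hpf, a ratio of 0.72. At 48 hpf MO2-ers2a embryos were 1.65-fold higher, above 96.6% of all measured names. The rank of lamb4 at 8 hpf depends on the processing. With the median of the array set to 0 in place of loess it stood at 0.30, below lamb1 at 0.37 and lama1 at 0.36. Lamb4 and lamb1 are neighbours in the RefSeq table, with 0 protein-coding genes between them. Lama5, an alpha chain of epidermal and fin fold basement membrane in zebrafish, had 9.16 against 9.28 at 8 hpf and 12.32 against 11.96 at 48 hpf, ratios of -0.12 and 0.36. Lama4, an alpha chain of vessel walls, was not above background at 8 hpf and stood at 11.13 against 10.95 at 48 hpf, a ratio of 0.18.

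**Figure D2:**
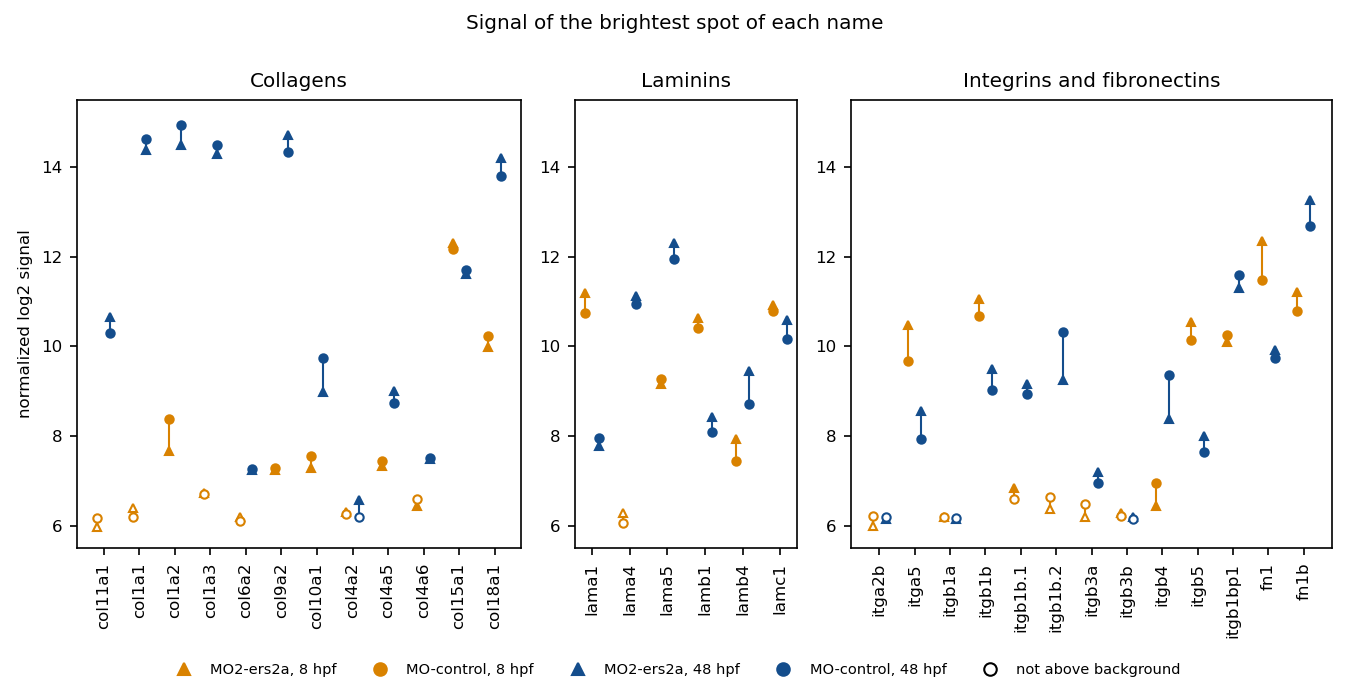
Normalized log2 signal (vertical axis) of the brightest spot of each name (horizontal axis) in the 4 RNA groups. Triangles are MO2-ers2a and circles MO-control embryos, orange 8 hpf and blue 48 hpf, open symbols not above background; heights compare within a name and not between names. The fibril-forming collagens col1a1, col1a2 and col1a3 lie near background at 8 hpf and, with circles above triangles, among high signals at 48 hpf, while fn1, itga5, lama1 and lamb1 lie lower at 48 hpf than at 8 hpf.

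The chains of type I collagen, the main fibril of skin, tendon and bone, were lower in MO2-ers2a embryos at 48 hpf on every spot. With the median of the array set to 0 in place of loess, however, col1a3 lay above 0. Col1a2 had 3 spots, and the brightest stood at 14.50 in MO2-ers2a and 14.93 in MO-control embryos. Their ratios were -0.50, -0.43 and -0.25. Col1a1, now col1a1a, had 2 spots, at 14.37 against 14.62 and 13.69 against 14.11, with ratios of -0.25 and -0.42. Col1a3, now col1a1b, had 1 spot, at 14.29 against 14.49, a ratio of -0.20. All 6 spots lay below 0, by 0.20 to 0.50. None reached 1.5-fold, and with the median of the array set to 0 in place of loess the medians of col1a1, col1a2 and col1a3 were -0.05, -0.13 and 0.09. With spike-in centring and no loess these medians were -0.23, -0.30 and -0.08. At 8 hpf only col1a2 was measured, on 2 dim spots with ratios of -0.73 and -0.10.

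Collagens of cartilage lay on both sides of 0 at 48 hpf. Col10a1, now col10a1a, encodes the network-forming type X collagen of hypertrophic cartilage, which in zebrafish is also made by bone-forming cells. It had 2 spots, at 8.99 in MO2-ers2a against 9.74 in MO-control embryos and at 8.46 against 9.24 at 48 hpf, and at 7.29 against 7.57 and 7.11 against 7.40 at 8 hpf. The spots agreed closely, with ratios of -0.75 and -0.79 at 48 hpf and of -0.27 and -0.28 at 8 hpf. The size at 8 hpf depends on the processing: the median was -0.80 in the authors' deposited table and -0.42 with a background offset of 0. At 48 hpf MO2-ers2a embryos were 1.70-fold lower, with 3.30% of all names as low or lower. Col9a2, a chain of the fibril-associated type IX collagen of cartilage and notochord, lay on the other side at 48 hpf. Its brighter spot stood at 14.71 against 14.35 and its dimmer one at 9.79 against 9.52, ratios of 0.36 and 0.27. A spot named col11a1, a type XI chain, which the reference tables match to several genes, stood at 10.67 against 10.30 at 48 hpf, a ratio of 0.37. Col6a2, of the beaded filaments of type VI collagen, stood at 7.25 against 7.28.

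Basement membrane collagens lay near 0 or above it at 48 hpf. The measured spot of col4a5 stood at 7.34 in MO2-ers2a and 7.46 in MO-control embryos at 8 hpf, a ratio of -0.11, and its ratio at 48 hpf was 0.27. Col4a6, its neighbour in the RefSeq table, had a ratio of -0.03 at 48 hpf, and col4a2 was above background only in Cy5. Col18a1, now col18a1a, the source of endostatin, had a bright spot at 9.99 against 10.23 at 8 hpf and at 14.21 against 13.79 at 48 hpf. Its 3 spots at 48 hpf gave 0.33, 0.33 and 0.41. Col15a1, the related multiplexin, stood at 12.30 against 12.18 at 8 hpf and at 11.62 against 11.70 at 48 hpf, ratios of 0.12 and -0.08.

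In 1 channel only, 7 spots of members were measured at 8 hpf and 3 at 48 hpf, all in Cy5, where the limit was lower. A bound could be given for 4 of these spots at 8 hpf and for 1 at 48 hpf. The bounds reached at most 1.23-fold at 8 hpf and 1.15-fold at 48 hpf. They are approximate lower limits, so on these spots a 1.5-fold difference could be neither called nor excluded.

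Between the times, the ratios of most members differed little in the main setting, as did those of most names. Of the 18 names measured on both arrays, 12 lay on the same side of 0 at both times, where 7523 of all 13288 names did. A difference of 2-fold or more between the log2 ratios was found for 0 of the 18, against 3.56% of all names higher and 2.78% lower at 48 hpf. A 1.5-fold difference was found for 1, fn1, whose ratio differed by -0.70 between 8 and 48 hpf, or by -0.35 with spike-in centring; 9.66% of all names were lower and 12.1% higher by that size. The next in that direction were lama1 by -0.54, col10a1 by -0.49 and itgb4 by -0.48. In the other direction were col18a1 by 0.57, lama5 by 0.48, col4a5 by 0.38 and col9a2 by 0.36. With spike-in centring these were larger, each past 1.5-fold. The ratios at 8 and 48 hpf were then -0.54 and 0.39 for col18a1 and -0.42 and 0.41 for lama5. For col4a5 they were -0.42 and 0.32, and for col9a2 -0.34 and 0.37. With spike-in centring and no loess, col9a2 had ratios of -0.90 and 0.34, past 2-fold. The counts of 0 and 1 above are thus those of the main setting. The differences of col10a1 and itgb4 depend on the processing. With spike-in centring lama1 stood at -0.19, col10a1 at -0.13 and itgb4 at -0.13. Itgb4 stood at -0.07 with a background offset of 0. With the median of the array set to 0 in place of loess, itgb4 stood at 0.18. Col10a1 stood at -0.04 in the authors' deposited table, and at 0.23 with spike-in centring and no loess. With no background correction, col10a1 and itgb4 stood at -0.50 and -0.58. No such difference was tested.

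**Figure D3:**
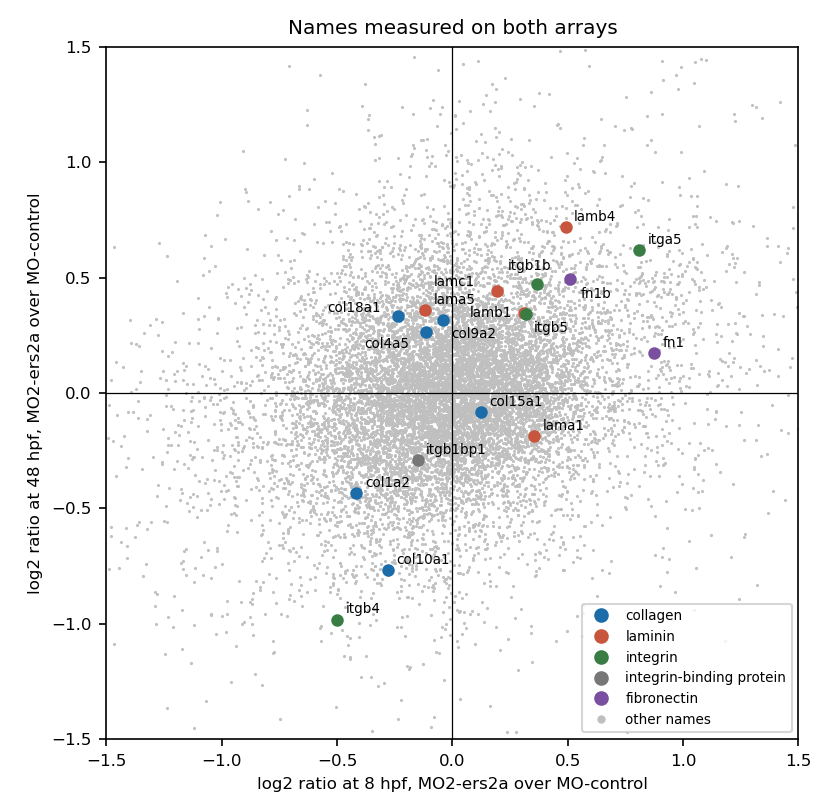
Log2 ratio at 48 hpf (vertical axis) against that at 8 hpf (horizontal axis) for names measured on both arrays, with the 18 members coloured by family and other names in grey; names beyond 1.5 on either axis are not drawn. Itga5 (0.81 and 0.62), fn1b, lamb4 and itgb1b lie at the upper right, itgb4 (-0.50 and -0.98), col10a1 and col1a2 at the lower left, and col18a1 and lama5 cross to the upper left.

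The levels of many members differed far more between 8 and 48 hpf than between the injected groups. This comparison sets 1 array against another, so array and time cannot be told apart. In MO-control embryos, 6 of 18 names measured at both times were at least 4-fold higher at 48 hpf (7.14% of all names were) and 3 were 4-fold lower (6.34% of all). In MO2-ers2a embryos these were 6 of 22 (7.81% of all) and 4 of 22 (5.77% of all). Scaling the arrays on spike-in spots changed these counts to 10 and 0 in MO-control and to 14 and 1 in MO2-ers2a embryos. The median of all names then moved from -0.31 to 0.87 and from -0.25 to 1.01. No share of all names is given for that scaling, so its counts are not read as a result about the members.

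Chains of type I collagen and col9a2 had the highest folds of 48 over 8 hpf among the members. Col1a2 was 131-fold higher at 48 than at 8 hpf in MO-control and 138-fold higher in MO2-ers2a embryos, and col9a2 was 134-fold and 177-fold higher. Col1a1 and col1a3 were not above background in MO-control embryos at 8 hpf. On the col1a1 spot that was just above background in MO2-ers2a embryos at 8 hpf, signal was 142-fold higher at 48 hpf in MO2-ers2a and at least 177-fold higher in MO-control embryos, and on its other spot at least 249.9-fold and 252-fold higher. Col1a3 was 189-fold higher in MO2-ers2a and at least 221-fold higher in MO-control embryos. Since the 8 hpf signals were near background, these folds carry large errors, and such differences between the groups are not read. Col11a1 was at least 12.6-fold higher at 48 hpf in MO-control and at least 20.2-fold in MO2-ers2a embryos, lama4 at least 19.7-fold and 27.9-fold, and itgb1b.2 at least 12.9-fold and 7.41-fold. Lama5 was 6.42-fold and 8.93-fold higher, the bright spot of col18a1 11.8-fold and 18.5-fold, and col10a1 4.03-fold and 2.87-fold.

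Several laminin, integrin and fibronectin names had lower signal at 48 than at 8 hpf; each value below compares both groups on the same spots. Lama1 was 6.83-fold lower at 48 than at 8 hpf in MO-control and 10.7-fold lower in MO2-ers2a embryos, and itgb5 was 5.59-fold and 5.83-fold lower on its brighter spot. The brighter spot of lamb1 differed between the times by -2.32 and -2.21 on the log2 scale. Fn1 differed by -1.73 in MO-control and -2.43 in MO2-ers2a embryos, and itga5 by -1.73 and -1.93. Fn1b lay on the other side, 1.39 and 1.38 higher at 48 hpf, and lamc1 was 1.55-fold and 1.26-fold lower. Scaled on spike-in spots, lamc1 lay on the other side, with medians over its 3 spots 0.71 and 0.59 higher at 48 hpf. These medians were taken in each group apart and can fall on different spots. The lamc1 pair is therefore not read as a difference between the groups. Under the same scaling fn1 stood at -0.88 and -1.58, itga5 at -0.46 and -0.65, and lama1 at -1.60 and -2.24.

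A further 25 spots carry locus or clone names that the reference tables assign to 23 genes of these families, under current symbols that meet the same rule. Of these spots, 3 were measured at 8 hpf and 12 at 48 hpf, and 0 were 2-fold different at either time. Itga6b, an alpha6 chain that binds laminin, was the 1 spot past 1.5-fold among those measured in both channels. It had log2 signals of 8.21 in MO2-ers2a and 7.25 in MO-control embryos at 8 hpf, a ratio of 0.96, and of 11.35 against 11.28 at 48 hpf, a ratio of 0.07. The authors' deposited table gave it 1.98 at 8 hpf, so the size of this dim spot depends on the processing. The spot of col15a1b was above background only in Cy5 at 8 hpf. Its ratio was 0.87, and 0.57 with spike-in centring. The MO-control signal was not above background, so this ratio is no lower limit. At 48 hpf, the 2 spots of col6a1, a type VI chain, stood at -0.50 and -0.16, itga3a at -0.41, col5a2a at -0.09 and col15a1b at 0.31.

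Genes that work with these families were taken from 6 pathway lists and found by current symbol. Of the enzymes and chaperones of collagen processing, 21 of 33 on the array were measured at 8 hpf, 15 of them below 0, with a median of -0.07, and 25 at 48 hpf, 14 below 0, with a median of -0.04. At 8 hpf, 2 were 1.5-fold lower, the prolyl isomerases fkbp7 at -0.84 and fkbp14 at -0.75 (2 spots, -1.15 and -0.35); the highest was pcolce2b, an enhancer of procollagen cleavage, at 0.56. At 48 hpf pcolce2b, at 0.80, was the 1 gene past 1.5-fold, and the lowest was the procollagen protease bmp1a at -0.51. Neither end of this list reached 2-fold at either time.

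Integrin adaptors held the largest single difference. Of 25 on the array, 17 were measured at 8 hpf, 11 below 0, with a median of -0.15. Parvab, an alpha-parvin that binds integrin-linked kinase, stood at -2.35 on 1 spot at 8 hpf, where the authors' deposited table gave -4.12, and at 0.08 at 48 hpf. The focal adhesion protein paxillin, pxna, stood at -0.92 and tes at -0.65, against zyxin, zyx, at 0.86 (2 spots, 0.67 and 1.05). At 48 hpf 20 were measured with a median of 0.01, from vinculin, vcla, at -0.53 to lims2 and the filamin flncb, both at 0.64. Integrin-linked kinase, ilk, lay at -0.01 and -0.06.

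Other receptors of matrix were above 0 for 3 of 3 genes at 8 hpf, from the syndecan sdc4 at 0.07 to the hyaluronan receptor cd44a at 0.67, though centred on spike-in spots their median was -0.17. At 48 hpf 5 of 6 were above 0, with a median of 0.47, from sgcb at -0.34 to sgcg at 0.70 (2 spots, 0.12 and 1.29), both sarcoglycans of the muscle membrane. Among matrix proteases and their inhibitors, 10 were measured at 8 hpf, with mmp9 at -1.21 the 1 gene 2-fold lower and the collagenase mmp13a the highest at 0.88. At 48 hpf 11 were measured, mmp23bb at 1.43 was 2-fold higher, and timp2b at 0.97, the gelatinase mmp2 at 0.86 and mmp28 at 0.60 were 1.5-fold higher; mmp13a was lowest at -0.19.

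Other matrix genes had 6 of 34 members measured at 8 hpf, from decorin, dcn, at -0.76 to mfap2 at 0.64, with a median of 0.43. That median depends on the processing: it was 0.02 with the stricter filter, 0.08 with no filter and 0.65 with offset 0. With spike-in centring and no loess it was -0.41, where that of all names was -0.56. At 48 hpf 29 were measured with a median of -0.03, from the nervous system tenascin tnr at -0.87 to ucmab, a cartilage protein, at 0.83. Of other basement membrane genes, 2 of 8 were measured at 8 hpf and 3 at 48 hpf; the nidogen nid1b, which links laminin to type IV collagen, stood at 0.37 and 0.15, fbln1 at 0.20 and -0.30, and ntn4 at -0.19 at 48 hpf.

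**Figure D4:**
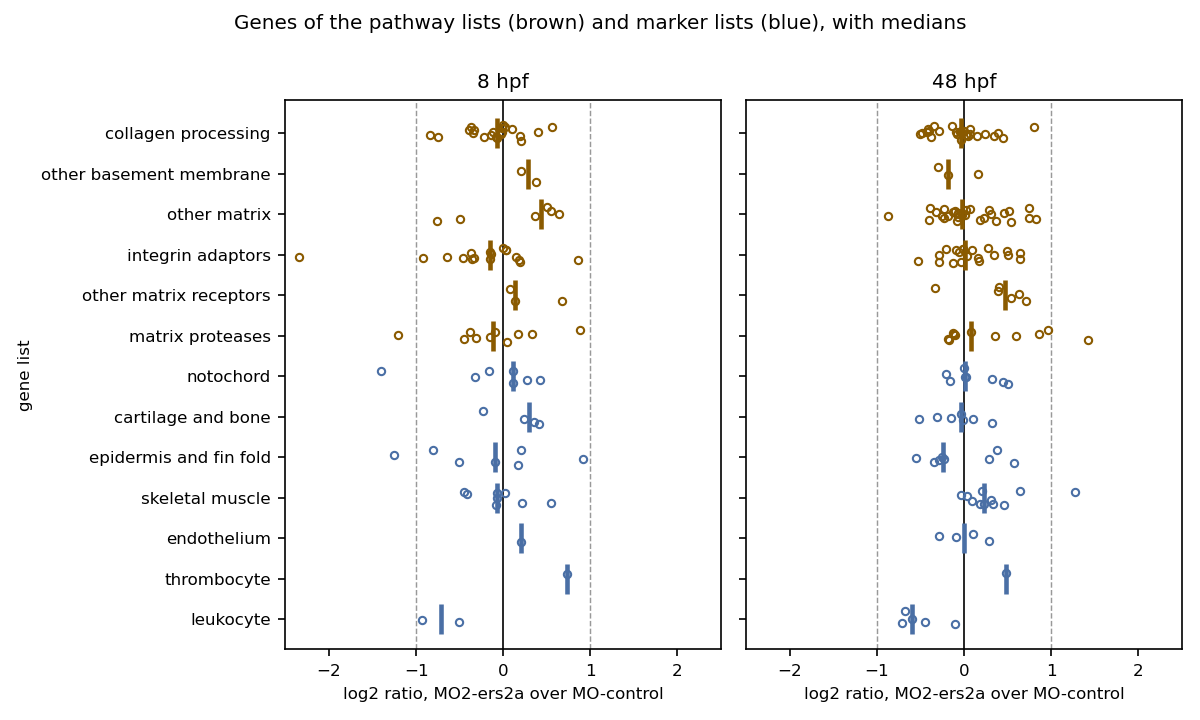
Log2 ratio of MO2-ers2a over MO-control (horizontal axis) for each measured gene of 6 pathway lists and 7 marker lists (vertical axis) at 8 hpf (left) and 48 hpf (right); circles are genes, bars list medians and dashed lines 2-fold. Parvab (-2.35) is the far left point at 8 hpf, mmp23bb (1.43) the far right one at 48 hpf, and the leukocyte genes all lie below 0.

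Markers of tissues that make or bind these proteins were read, and the part of these tissues in the ratios above was not tested. At 8 hpf, during gastrulation, a value is that of the gene, and whether it reflects the cell type was not tested. The epidermis and fin fold list, beside which itgb4 and lama5 stand, had 4 of 7 measured genes below 0 at 8 hpf. They ran from krt91 at -1.25 to tp63 at 0.91 (2 spots, 0.67 and 1.15). At 48 hpf 5 of 8 were below 0, from -0.55 to 0.57. The median at 48 hpf was -0.24, but 0.05 with the median of the array set to 0 in place of loess. The summed signal of this list was 204314 in MO2-ers2a and 254261 in MO-control embryos at 8 hpf and 207308 and 224622 at 48 hpf. Cartilage and bone markers ran from -0.23 to 0.41 over 4 genes at 8 hpf, 3 above 0, and from -0.52 to 0.32 over 7 at 48 hpf, 5 below 0. Their summed signal at 48 hpf was 8132 in MO2-ers2a and 6446 in MO-control embryos, a direction that most of the genes did not share. The defining markers sp7 and matn1 were not above background in either channel at 48 hpf. Notochord markers ran from -1.40 (ntd5) to 0.42 over 7 genes at 8 hpf and from -0.20 to 0.50 over 8 at 48 hpf. Skeletal muscle markers were above 0 for 10 of 11 genes at 48 hpf, with a median of 0.23 and desma at 1.27 the 1 gene 2-fold higher, and summed to 347930 against 300510. With the median of the array set to 0 in place of loess, the muscle median was 0.50. Endothelial markers ran from -0.29 to 0.29 over 4 genes at 48 hpf, and tek stood at 0.20 at 8 hpf. Leukocyte markers were below 0 for 5 of 5 genes at 48 hpf, where they ran from -0.72 to -0.10 and summed to 2757 against 4197. At 8 hpf 2 of 2 measured genes of this list were below 0, lcp1 and coro1a. Mpx, mpeg1.1 and spi1b were then not above background in either channel, so these 8 hpf values are not read as leukocytes. Of the thrombocyte markers only nfe2 was measured, at 0.73 and 0.48, and mpl was not above background.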

How the data were processed

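The submitters' processing notes name Agilent Feature Extraction, with no version. Scanner intensity was deposited per spot as the median signal and median local background of each channel, per the file headers. The deposited series matrix holds log10 ratios by spot number; over bright spots these followed the raw log2 Cy5 over Cy3 ratio with slopes of 0.293 and 0.299 (Pearson r 0.983 and 0.988, across spots), so they are Cy5 over Cy3. Their column medians were 0, the authors' dye normalization is unknown, and values of exactly 0 (36.8% and 34.7% of spots) were treated as not measured.

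Normexp background correction with an offset of 50 (R 4.3.3, limma 3.58.1) was followed by loess within each array with control spots at weight 0. A spot was measured where each channel, less its background, lay more than 2.6 SD above the negative control mean (at 8 hpf 24.4 for Cy5 and 59.9 for Cy3, at 48 hpf 27.7 and 70.1). The value of a name is the median over its measured spots. Spike-in centring sets the median of the E1A control spots to 0, which takes their mixed ratios as balanced around equal amounts. Levels per channel were taken after loess and Aquantile, and a bound sets the measured channel against the other channel's signal, or the lowest measured signal where that is higher. Where the other channel's signal is used, the bound equals the plain ratio, so bounds are approximate. With 1 array per time, the number of arrays limits the precision and calls are fold sizes. The steps were tested on simulated data with known folds, all larger than 2-fold, so the recovery of smaller differences was not tested. Summaries used Python 3.11.15 with numpy 2.4.6 and pandas 2.3.3.

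Of the 31 names, 23 are current symbols, 6 were updated through an older symbol in RefSeq (GRCz12tu) or Ensembl tables used for names only, 1 was ambiguous (col11a1) and 1 had no match (col15a1). No probe or protein sequences were used here. Named with values were all members at 2-fold, the 3 highest and 3 lowest of each family, those with the largest differences between times and in level, all fibronectins, and list genes at 2-fold or at either end; further values were added after they were seen. Members and lists were chosen with earlier results of these data known.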

Additional observations from a re-analysis of the deposited data

Results flagged for a closer look

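The log2 ratios of 6 members lay on opposite sides of 0 at 8 and 48 hpf, and the difference was not tested. Col18a1 went from -0.24 to 0.33, a difference of 0.57, lama5 from -0.12 to 0.36 (0.48), col4a5 from -0.11 to 0.27 (0.38) and col9a2 from -0.04 to 0.32 (0.36). Lama1 went from 0.36 to -0.19, a difference of -0.54, and col15a1 from 0.12 to -0.08 (-0.21). With 1 array per time, any change of sign meets this criterion.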

How the results depend on the processing

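No paired analysis was possible because each group has 1 array. Alternatives were median centring and spike-in centring, normexp offset 0, no background correction, no filter and a stricter filter on dim spots, the brightest spot, the authors' log ratios and, for counts and family medians, members found also by current symbol; spike-in centring without loess was added after seeing the data. No 2-fold ratio changed sign under any of them. Held to the pooled SD between spots over all names, family medians moved by more only at 8 hpf under spike-in centring without loess, to -0.92 for collagens, -0.23 for laminins, -0.12 for integrins and 0.28 for fibronectins, where the median of all names was -0.56. The smaller SD of the members was also exceeded at 8 hpf, by all families with spike-in centring, by collagens with median centring (-0.385) and by integrins without a filter (0.03). At 48 hpf it was exceeded with median centring by collagens (0.09) and fibronectins (0.46). Integrins exceeded it at 48 hpf with offset 0 (0.39), without a filter (0.13) and with spike-in centring without loess (0.08). At 8 hpf, the count of members 1.5-fold higher, 2 as reported, became 0 with spike-in centring with or without loess, and 4 with offset 0 and with the authors' log ratios. Of all names, 3.34%, 2.40%, 9.86% and 12.3% were as high under these settings in turn. The count 1.5-fold lower, 0 as reported, became 2 with median centring, spike-in centring and the authors' log ratios, 7 with spike-in centring without loess, and 1 with offset 0, the stricter filter and the brightest spot. Of all names, 14.8%, 23.9%, 15.4%, 47.6%, 13.3%, 9.02% and 8.78% were as low under these settings in turn. At 8 hpf, 1 member was 2-fold higher with median centring, and 1 was 2-fold lower with median centring and offset 0 and 3 with spike-in centring without loess. At 48 hpf, the count 1.5-fold higher, 2 as reported, became 1 with spike-in centring without loess and without background correction, where 4.30% and 5.37% of all names were as high. With median centring fn1b also passed 1.5-fold (0.63), beside itga5 (0.59), where 8.23% of all names were as high. The count 2-fold lower, 1 as reported, became 0 with median centring and 2 with offset 0, spike-in centring without loess and the authors' log ratios. Between arrays, spike-in scaling changed the members 4-fold higher at 48 hpf from 6 to 14 in MO2-ers2a and from 6 to 10 in MO-control embryos, and those 4-fold lower from 4 to 1 and from 3 to 0. Spike-in centring after loess shifts all ratios of an array by the same amount. Spike-in scaling between arrays takes the place of Aquantile, so its shift of the levels differs between names. The cause of the other changes was not tested. For 2-fold and 4-fold counts, shares of all names are given only for the main setting. Dim signals limit the 8 hpf array, where 13 of 31 names were not measured in both channels.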
